A study of Rattus norvegicus with 21 samples.

Results

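Mitochondrial ribosomal protein genes were found by name, as every row of the 4 deposited tables whose symbol starts with Mrpl or Mrps in that letter case, followed by a number. This gave 76 members of 26597 genes, 46 named for the large subunit (Mrpl) and 30 for the small subunit (Mrps). Each library is total RNA from the left ventricle of 1 rat of the F-344 Brown/Norway strain. In each sex they form 3 groups: 24-month rats given relaxin (RLX, 400 ug/kg/day by subcutaneous minipump for 14 days), 24-month controls given sodium acetate the same way, and 9-month controls given sodium acetate. There were 4 females and 3 males in each group, 21 rats in all. RLX is a peptide hormone given here to aged animals, and no RLX-treated 9-month rats were analysed here. The question for these genes is whether aging or RLX moved the mRNAs of the mitochondrial translation machinery in either sex.

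As background, mitochondria carry their own ribosome, which translates only the few mRNAs of the mitochondrial genome, all for subunits of the respiratory chain and the ATP synthase. Its rRNAs are made in the mitochondrion, but its proteins are encoded in the nucleus, translated in the cytosol and imported. Nearly every member serves the same particle: the large subunit forms the peptide bond and holds the exit tunnel, and the small subunit binds the mRNA and decodes it. The heart, with its dense mitochondria, depends on this supply. Many of these proteins have bacterial homologs, and others exist only in mitochondria. The names mislead in a few cases: Mrps18a and Mrps30 code for proteins of the large subunit, and the product of Mrps36 is a component of the 2-oxoglutarate dehydrogenase complex.

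The libraries held 11997512 to 19027947 counts (median 14936627), of which the members took 0.286% to 0.426% and the genes of the mitochondrial genome 30.9% to 49.6%. All 8 cardiomyocyte markers were detected in every group, as a left ventricle should show, with a summed level of 25381 to 38465 CPM (counts scaled to library size). Some libraries stood apart in markers of other tissues. The 5 atrial markers summed to 6615 CPM in 1 aged control female (rat 5), and the 5 blood markers to 11240 CPM in RLX female rat 4 and 1415 CPM in aged control female rat 6. The atrial list holds Nppa, which the paper reports as higher in aged female ventricles, so its sum alone cannot show atrial tissue. Among RLX males the blood markers reached 325 CPM in rat 2, against a group median of 14.6 CPM. Results are therefore also given with each library left out. The RNA is bulk RNA, so fewer cells of a type and less RNA per cell cannot be told apart.

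The members were moderately to highly expressed, and their levels spanned a wide range as the plot of levels by rank shows. RPKM, which scales counts by gene length and library total, allows genes to be compared with each other. The median member had a median RPKM of 34.4 over the 21 libraries, against 375 for the nuclear respiratory chain genes and 154 for the cytosolic ribosomal protein genes. Mrpl33, a homolog of bacterial L33, was highest, with a median of 214 RPKM (157 to 293). Mrps36_1, the gene of the dehydrogenase component, followed at 191 RPKM (151 to 299). Mrpl54, of the large subunit, had 174 RPKM (75.7 to 216), and Mrpl12, whose protein forms the flexible stalk that recruits translation factors, had 116 RPKM (46.5 to 145). These ranges overlap between each of the 4 genes and the next. The large-subunit names had a median of 36.4 RPKM and the small-subunit names 31.5 RPKM. Homologs of bacterial proteins, with 36.4 RPKM over 44 rows, and mitochondria-specific proteins, with 31.2 RPKM over 29 (a list without Mrpl55), lay close together.

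**Figure D1:**
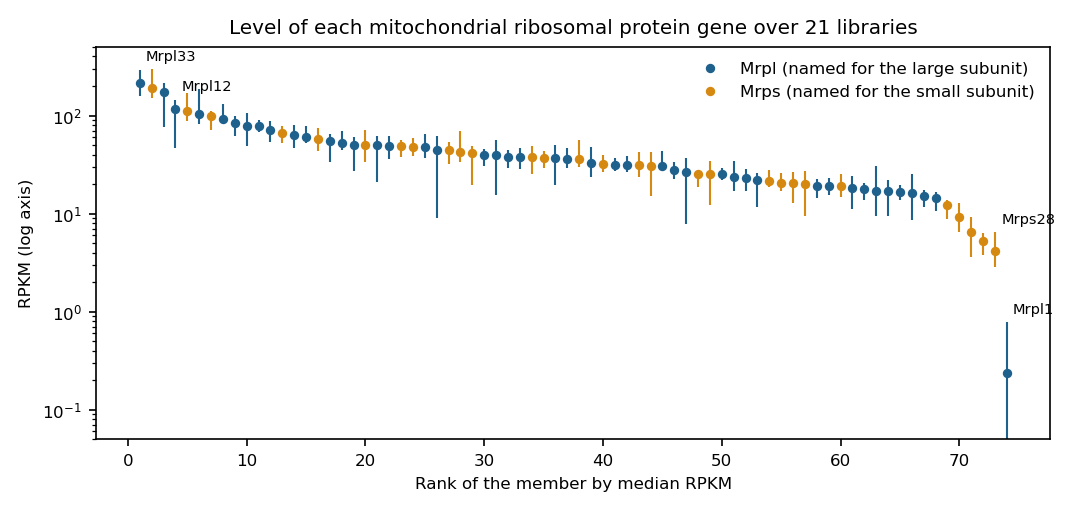
RPKM of each member on a log axis, ordered by its median over 21 libraries. Points are medians and lines run from the lowest to the highest library (cut at the lower edge of the axis for Mrpl1, whose lowest library is at 0). Of 76 members, 73 have medians between 4.11 and 214 RPKM, Mrpl1 lies at 0.236, and 2 members with a median of 0 are not drawn.

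At the low end stood 3 rows that were tested in no comparison. Mrpl1, whose protein forms the L1 stalk near the tRNA exit, had 97 counts in all, at most 12 in a library. Mrpl36_2 had 11 counts in all, at most 3 in a library, and 14 libraries held none. Mrps36_2 had no count in any library, which allows at most 3 counts in each, and its gene length could not be derived. Mrpl36_1 and Mrps36_1, the other rows of these names, had 350 to 741 and 2011 to 4222 counts per library. The lowest of the tested members was Mrps28, of the small subunit, with 4.11 RPKM and 35 to 81 counts. The rows Mrpl30_1 and Mrpl30_2 overlap in position, so reads of the shared stretch may have been assigned to either, and both are uncertain.

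Promoter sequence is shown for 7 members whose values are given below, with and without a motif: the most abundant member (Mrpl33), members low in RLX-treated males (Mrpl54, Mrpl12 and Mrpl52), members low in aged control females (Mrpl50 and Mrpl2) and a misnamed gene (Mrps18a). RefSeq promoters on GRCr8, taken as the 250 bases before each start, were matched for 58 member symbols. The letters searched on both strands were CCGGAAG (the core of ETS factors such as the GABP complex), GCGCATGC (the core of NRF1), and AAGATGGC (YY1). The ETS core was in 11 of 58 member promoters (19%) and in 7.74% of all 27456 promoters. The NRF1 core was in 5 of 58 (8.62%, against 2.38% of all), and the YY1 core in 3 of 58 (5.17%, against 1.69%). Of 4 further motifs, TCAAGGTCA (ERR) was in 0 member promoters (0.368% of all), CACGTG in 6.9% (5.79%), CCAAT in 43.1% (34.3%) and TATAAA in 12.1% (13.1%). A match is a description of letters only. The 100 bases before the start follow, 5′ to 3′, with matches to the ETS or NRF1 core in capitals. Mrpl33 lies on chr6:30553988-30554087 (minus strand), Mrpl54 on chr7:9103425-9103524 (plus), Mrpl12 on chr10:106256646-106256745 (plus), Mrpl52 on chr15:31852836-31852935 (plus), Mrpl50 on chr5:68668088-68668187 (minus), Mrpl2 on chr9:21834608-21834707 (minus) and Mrps18a on chr9:22367381-22367480 (minus).
Mrpl33: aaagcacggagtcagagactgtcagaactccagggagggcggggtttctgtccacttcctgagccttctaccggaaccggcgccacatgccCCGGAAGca
Mrpl54: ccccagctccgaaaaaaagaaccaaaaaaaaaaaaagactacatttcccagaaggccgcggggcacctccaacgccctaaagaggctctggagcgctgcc
Mrpl12: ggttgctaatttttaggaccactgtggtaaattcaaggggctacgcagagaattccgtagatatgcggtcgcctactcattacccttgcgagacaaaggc
Mrpl52: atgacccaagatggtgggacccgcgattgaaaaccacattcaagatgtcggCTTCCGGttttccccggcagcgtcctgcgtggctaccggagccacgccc
Mrpl50: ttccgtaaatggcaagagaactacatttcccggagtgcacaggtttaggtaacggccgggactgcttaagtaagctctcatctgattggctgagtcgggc
Mrpl2: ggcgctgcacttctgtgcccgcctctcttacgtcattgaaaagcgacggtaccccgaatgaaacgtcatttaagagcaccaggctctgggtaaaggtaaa
Mrps18a: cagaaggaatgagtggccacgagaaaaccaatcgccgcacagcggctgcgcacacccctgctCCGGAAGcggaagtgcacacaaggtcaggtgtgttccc
In these windows Mrpl33 and Mrps18a carry the ETS core as searched and Mrpl52 carries it on the other strand. Mrpl54, Mrpl12, Mrpl50 and Mrpl2 have no match to either, as is so for most member promoters.

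Gene length matters for this family. The members' exons summed to 294 to 2401 bases (median 988), against a median of 1854 bases over all genes, so members are compared below with 3918 other tested genes of 608 to 1747 bases, and with all other genes in the same of 10 length classes, cut to hold equal numbers of genes. In every library the median of log2 CPM, less each gene's mean over the 21 libraries, was taken over the 73 tested members. It was -0.11, -0.12 and -0.16 in RLX males, against 0.12, 0.15 and 0.21 in aged control males, and 0.071, 0.22 and -0.13 in young males. The RLX and aged control males did not overlap, and the young males reached from below the aged controls to above them. In females it was -0.033, 0.14, 0.081 and -0.093 with RLX, against -0.11, -0.039, -0.054 and -0.11 in aged controls and -0.018, 0.048, 0.018 and 0.010 in young controls. All aged control females lay below all young females, and the RLX females overlapped both. The other genes of like length moved too: they ran from -0.082 to -0.064 in RLX males, against 0.037 to 0.16 in aged control males. The difference between the members and those genes was -0.046, -0.038 and -0.082 in RLX males, against 0.081, 0.058 and 0.050 in aged control males. It was -0.14, -0.087, -0.044 and -0.11 in aged control females, against 0.053, 0.063, 0.10 and 0.021 in young females. These scores over members are descriptions and were given no test.

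**Figure D2:**
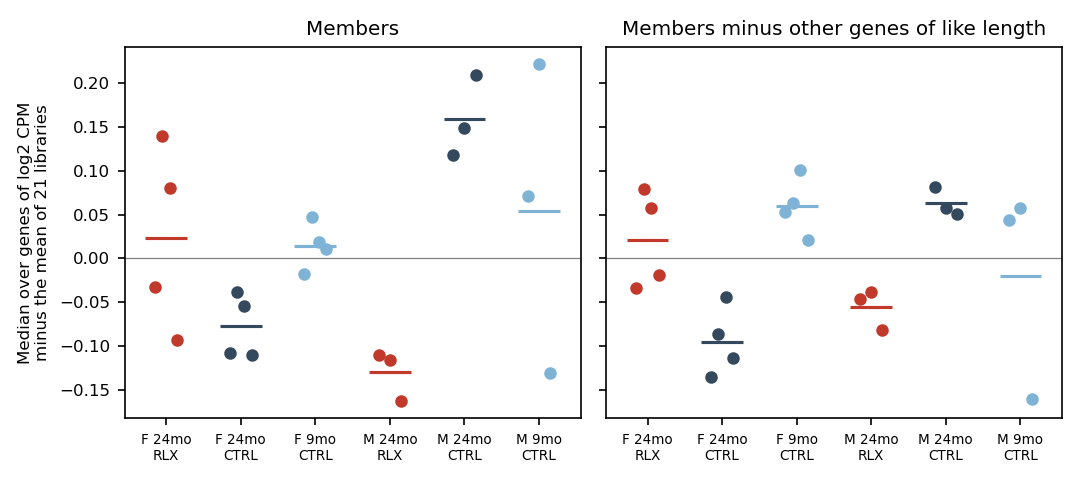
Median over the 73 tested members of log2 CPM minus each gene's mean of 21 libraries (left), and the same after subtracting the median of 3918 other genes of like length (right). Each point is a library and bars are group means (4 females or 3 males a group; F, female; M, male). RLX males lie below aged control males in both panels, and aged control females below young females in both.

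RLX in aged males gave the widest shift of the family. Of 73 members tested, 69 had a negative log2 fold change and 4 a positive one, with a median of -0.29 (range -0.77 to 0.16), against 0.011 for all genes. In 53 members every RLX male lay below every aged control male, and in 0 above. Over all 12232 genes, 20.2% did not overlap, 12.7% lower and 7.50% higher, and 23.4% of the genes of like length were lower without overlap. No member passed an FDR of 0.05 in edgeR's quasi-likelihood test, and 0% of all genes did. At an unadjusted p under 0.05, 28 members were lower and 0 higher, against 7.55% and 4.41% of all genes. DESeq2 and voom with quality weights each called 1 member lower, Mrpl54, where they called 0.940% and 1.04% of all genes lower. The exact test of edgeR called 0 members and 0.147% of all genes. With a library left out the count at an unadjusted p under 0.05 ran from 14, without RLX rat 2, to 23. This count was 17 without aged control rat 8, while the median stayed between -0.30 and -0.24. Blood markers summed to 325 CPM in RLX rat 2, against a group median of 14.6 CPM, and their part in the result was not tested.

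Mrpl54, of the large subunit near the factor-binding stalk, had 79.1, 60.3 and 90.5 CPM in RLX males, against 121, 126 and 119 CPM in aged control males. All RLX males were lower, rat 3 the lowest. This is a difference of -0.64 on the log2 scale (SE 0.16, edgeR adjusted p = 0.28, n = 3 each). Mrps24, the homolog of bacterial S3 at the mRNA entry, had 28.7, 20.7 and 30.2 CPM with RLX, against 38.2, 42.5 and 44.9 CPM in aged controls (log2 fold change -0.63, SE 0.17). Among the RLX males Mrpl12 had the same order of rats, with 94.1, 66.3 and 109 CPM in RLX males, against 144, 140 and 129 CPM in aged control males (-0.59, SE 0.18). Mrpl52, mitochondria-specific, had 26.9, 25.7 and 31.6 CPM with RLX, against 38.3, 42.8 and 42.6 CPM without. Mrpl34, a homolog of bacterial L34, had 17.0, 11.6 and 14.9 CPM, against 22.8, 23.1 and 23.4 CPM. The groups do not overlap in either gene. Mrpl55 and Mrps34, both mitochondria-specific, had log2 fold changes of -0.59 (SE 0.17) and -0.53 (SE 0.16) with groups that do not overlap. The adjusted p of all these members lay between 0.28 and 0.31 in edgeR.

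The shift was larger in shorter members. Among the other genes the median log2 fold change climbed without a break along the 10 length classes, from -0.35 in the shortest (up to 939 bases) to 0.29 in the longest (above 4717 bases). The 31 members in the shortest class had a median of -0.37, the 19 in the next -0.32 against -0.17 for other genes, and the 11 in the third -0.19 against -0.11. Medians of the 12 longer members also lay below those of other genes, with -0.12 against -0.071 for 5 in the fourth class. In the fifth class 2 had -0.19 against -0.028, and 5 in the sixth had -0.15 where the other genes were positive, at 0.033. Over all members the difference from their own length class was -0.061, with 46 below it and 27 above. With the trend on length removed in each library, the family's median was -0.062, 49 of 73 members were negative and 2 had an unadjusted p under 0.05, both lower, against 3.99% of all genes lower. The length trend differed between the groups themselves. The median of the shortest 20% of all genes less that of the longest 20% stood at -0.21 to -0.27 in RLX males, against 0.062 to 0.50 in aged control males. Cardiomyocyte markers moved the same way, with 28792 to 33016 CPM in RLX males, against 37090 to 38465 CPM in aged control males. The part of these markers in the result was not tested.

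**Figure D3:**
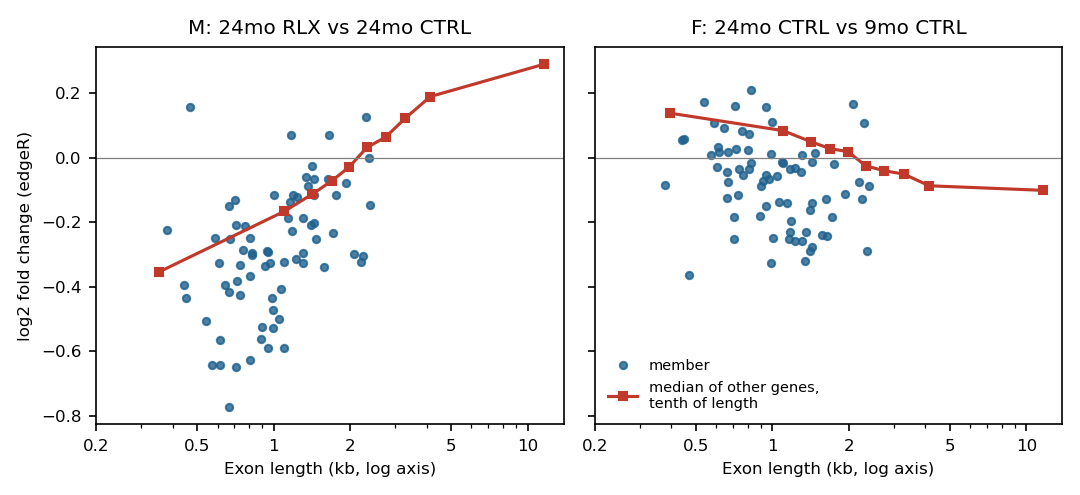
Log2 fold change of each member (blue) against exon length on a log axis, with the median of all other genes in each of 10 length classes (red squares at the geometric middle of the class). In males given RLX the red line climbs from -0.35 to 0.29, and 46 members lie below the median of their class and 27 above. In aging females the red line declines from 0.14 to -0.10 while most members lie under it.

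Aging in females had the opposite relation to length. Members were lower in 51 of 73 cases in aged than in young control females, with a median log2 fold change of -0.055 (range -0.36 to 0.21), while other genes of like length had a median of 0.064 and were positive in 60.1%. Compared with its own length class, 66 members lay below and 7 above, with a median difference of -0.15. Groups did not overlap for 14 members that were lower and 1 that was higher, against 6.68% and 7.39% of all 12696 genes. No member passed an FDR of 0.05 in edgeR, against 5.35% of all genes, or 2.77% with the study's further limits on fold change and RPKM. Unadjusted p under 0.05 was reached by 12 lower and 0 higher members, against 9.64% and 11.6% of all genes. DESeq2 called 3 members lower (Mrpl50, Mrpl2 and Mrps35) and 3.70% of all genes lower. The exact test and voom called 0 members, where they called 2.61% and 1.94% of all genes lower and 5.13% and 3.67% higher. With the length trend removed, 5 members passed in edgeR, all lower: Mrpl50, Mrpl2, Mrps35, Mrpl41 and Mrpl16, against 2.59% of all genes called lower in that fit. There 28 members had an unadjusted p under 0.05, all lower, against 9.94% of all genes, and the median was -0.15.

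Mrpl50, a mitochondria-specific protein of the large subunit, had 47.9, 47.2, 50.1 and 43.3 CPM in aged control females, against 54.0, 59.0, 57.7 and 60.0 CPM in young females. All aged females were lower. This is a difference of -0.29 on the log2 scale (SE 0.080, n = 4 each), with the smallest adjusted p of the family, 0.057 in edgeR. Mrpl2, the homolog of L2 beside the catalytic centre, had 19.9, 19.4, 16.7 and 20.4 CPM in aged control females, against 24.4, 22.4, 24.4 and 24.8 CPM in young females (-0.33, SE 0.098, adjusted p = 0.075 in edgeR). Mrps35, of the head of the small subunit, had 40.3, 45.6, 40.0 and 40.6 CPM in aged controls, against 51.2, 47.4, 50.1 and 51.1 CPM in young controls (-0.26, SE 0.082). These groups are separate in both genes. Mrps30, Mrpl41 and Mrpl51 also had groups that do not overlap, with log2 fold changes of -0.28, -0.25 and -0.29. The 1 member with aged females above all young females was Mrpl55, at 0.16 on the log2 scale (SE 0.096, edgeR adjusted p = 0.37).

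The smallest adjusted p of the family ran from 0.063 to 0.15 in edgeR as each female was left out, and the count of members with an unadjusted p under 0.05 from 7, without young female rat 4, to 15. Cardiomyocyte markers summed to 25381 to 29796 CPM in aged control females, against 32065 to 38400 CPM in young females. The 5 macrophage markers in the tables summed to 492 to 628 CPM in aged control females, against 242 to 338 CPM in young females, and the 6 fibroblast markers to 3424 to 4070 CPM, against 1955 to 2735 CPM. The part of these lists in the result was not tested. Without the female with high atrial markers (aged control rat 5) the family's median was -0.058, and without the one with blood RNA (aged control rat 6) it was -0.038. It was -0.094 without aged control rat 4 and -0.087 without young rat 4.

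**Figure D4:**
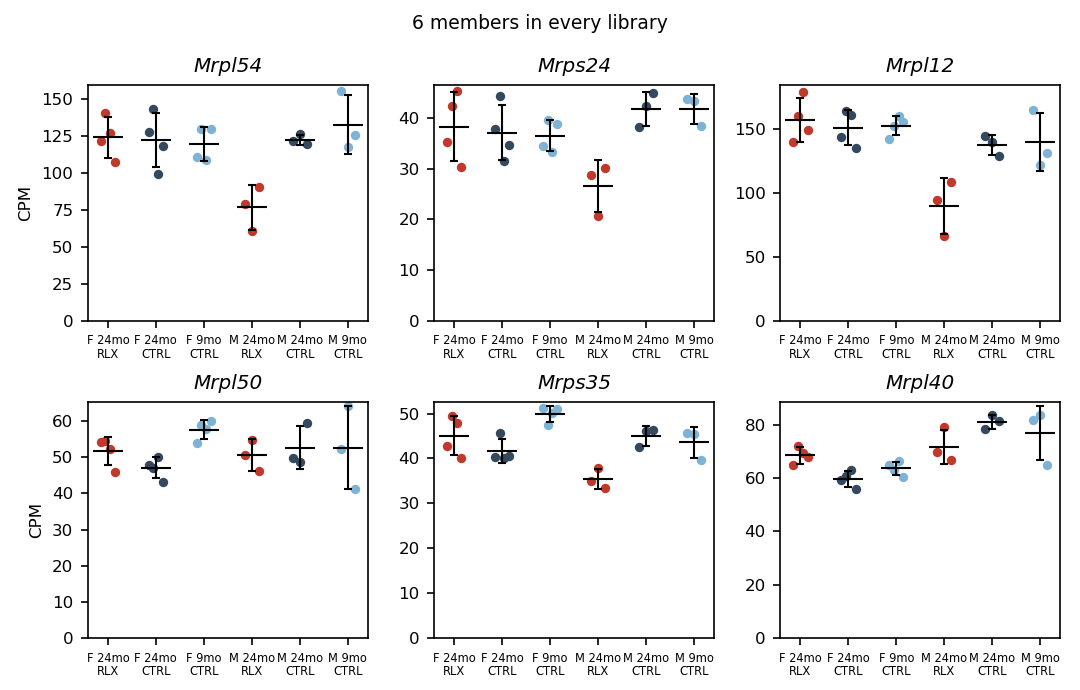
CPM of 6 members in each library (points), with the group mean and SD (bars; 4 females or 3 males a group). Mrpl54, Mrps24 and Mrpl12 are low in the 3 RLX males (60.3 to 90.5, 20.7 to 30.2 and 66.3 to 109 CPM), Mrpl50 and Mrps35 are low in the 4 aged control females, and Mrpl40 is higher in RLX females (64.8 to 72.1 CPM) than in aged control females (55.8 to 62.9 CPM).

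RLX in aged females went with slightly higher levels. Of 73 members 56 were positive and 17 negative, with a median log2 fold change of 0.066 (range -0.22 to 0.49), against -0.022 for other genes of like length, and 62 members lay above their own length class. Groups did not overlap for 6 members that were higher and 0 that were lower, against 4.14% and 3.84% of all 12591 genes (7.98% in either direction). No member passed in edgeR, and 0% of all genes did. At an unadjusted p under 0.05, 4 members were higher and 0 lower, against 6.27% and 7.81% of all genes. DESeq2, the exact test and voom also called 0 members, where they called 2.26%, 1.32% and 0% of all genes. Mrpl40, of the central protuberance of the large subunit, had 64.8, 72.1, 69.3 and 67.8 CPM in RLX females, against 59.4, 60.6, 62.9 and 55.8 CPM in aged control females (0.19, SE 0.077, adjusted p = 0.31 in edgeR, n = 4 each). Every RLX female was higher. Mrpl51 had 39.2, 38.8, 40.8 and 37.5 CPM with RLX, against 35.9, 34.6, 34.1 and 27.99 CPM without, so the groups did not overlap, and the log2 fold change was 0.23 (SE 0.095).

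Mrps10, a small-subunit protein of the head with few counts (28 to 73 a library), had 3.81, 2.82, 4.15 and 2.92 CPM in RLX females, against 2.42, 1.95, 2.57 and 2.78 CPM in aged control females (0.49, SE 0.20). Mrps5, Mrpl3 and Mrpl10 also had RLX females above all aged controls, with log2 fold changes of 0.17, 0.15 and 0.11. Mrpl3 is a core protein of the large subunit and Mrpl10 the anchor of the stalk. The median ran from 0.037, without RLX rat 2, to 0.092 as each female was left out, and it was 0.042 without RLX rat 4, whose library held blood RNA. It was 0.082 without the aged control rat with high atrial markers and 0.050 without the one with blood RNA. The aged controls are the same rats as in the aging comparison, so the opposite signs of the 2 comparisons are not independent. Cardiomyocyte markers summed to 32958 to 36773 CPM in RLX females, against 25381 to 29796 CPM in aged control females, and fibroblast markers to 2228 to 2681 CPM, against 3424 to 4070 CPM. Macrophage markers summed to 278 to 513 CPM in RLX females, against 492 to 628 CPM in aged control females. Their part in the result was not tested.

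Aging in males left the members with a small positive median. The log2 fold change had a median of 0.047 over 73 members (50 positive, range -0.18 to 0.34), against 0.00070 for other genes of like length, and 48.3% of all genes were positive. Groups did not overlap for 5 higher and 1 lower members, against 7.31% and 6.95% of all 12220 genes. No member passed in edgeR (0% of all genes), and 0 had an unadjusted p under 0.05 (2.82% of all genes higher and 5.73% lower). DESeq2, the exact test and voom called 0 members, where they called 0.516%, 0.638% and 0.532% of all genes. The young male rat 4 decided the sign: without it the median was -0.037, with 45 of 73 negative, and without young male rat 3 it was 0.15. Atrial markers summed to 878 CPM in young male rat 4 and to 190 and 214 CPM in the other young males. The members' median was 0.019 without aged control rat 12 and 0.078 without aged control rat 8. Cardiomyocyte markers summed to 37090 to 38465 CPM in aged control males, against 27105 to 37687 CPM in young males, fibroblast markers to 2585 to 3251 CPM, against 2692 to 5247 CPM, and macrophage markers to 366 to 438 CPM, against 424 to 578 CPM. The part of these lists in the result was not tested. Mrps25, mitochondria-specific, had 47.6, 48.7 and 56.9 CPM in aged control males, against 39.2, 44.4 and 35.2 CPM in young males (0.34, SE 0.17, adjusted p = 0.61 in edgeR, n = 3 each). Mrpl49, Mrps7, Mrpl19 and Mrps31 also had aged males above all young males, with log2 fold changes of 0.27, 0.16, 0.18 and 0.16. Only Mrps26 lay the other way among members without overlap, at -0.16 (SE 0.16).

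**Figure D5:**
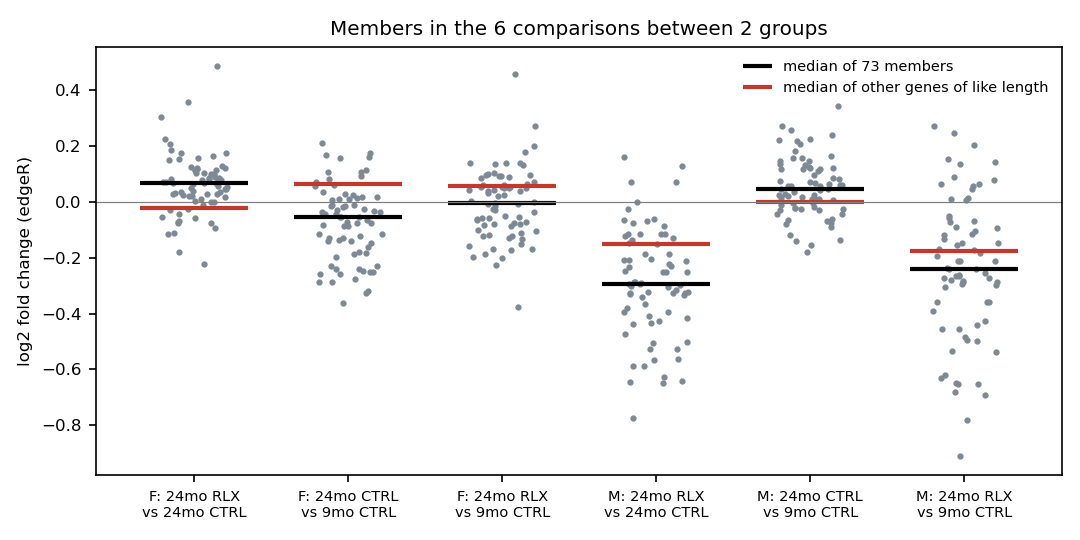
Log2 fold change of the 73 tested members (points) in the 6 comparisons between 2 groups, with the median of the members (black) and of 3918 other genes of like length (red). The members' median is -0.29 in RLX against control aged males and -0.055 in aged against young females, where the red line is at -0.15 and 0.064.

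RLX-treated aged rats were also set against young controls of their sex, with which the comparisons above share groups. In females the members centred on 0, with a median log2 fold change of -0.0043 (36 positive and 37 negative). Groups did not overlap for 3 lower and 0 higher members, against 3.51% and 2.98% of all 12570 genes. No member passed in edgeR, as against 0.00796% of all genes, 3 were higher and 3 lower at an unadjusted p under 0.05 (5.54% and 5.87% of all genes), and DESeq2, the exact test and voom called 0. Mrpl2 had the smallest p, with 16.6, 20.7, 20.4 and 16.5 CPM in RLX females, against 24.4, 22.4, 24.4 and 24.8 CPM in young females (-0.38, SE 0.10, adjusted p = 0.24 in edgeR, n = 4 each). Every RLX female was lower. Mrps31 and Mrpl38 also had RLX females below all young females, at -0.20 (SE 0.089) and -0.17 (SE 0.084).

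In males the members had a median log2 fold change of -0.24 between RLX-treated aged and young males, with 58 of 73 negative, and other genes of like length had -0.18. Groups did not overlap for 25 lower and 1 higher members, against 11.2% and 11.4% of all 12285 genes, or 18.4% and 4.42% of the genes of like length. No member passed in edgeR (0% of all genes), and 17 were lower and 0 higher at an unadjusted p under 0.05, against 8.97% and 7.07% of all genes. DESeq2 and the exact test each called 1 member lower, Mrpl54, where they called 1.65% and 1.93% of all genes lower. Voom called 0 members and 0.838% of all genes. Mrpl54 had 79.1, 60.3 and 90.5 CPM in RLX males, against 155, 117 and 125 CPM in young males (-0.78, SE 0.20, adjusted p = 0.14 in edgeR, n = 3 each). Mrpl28, a homolog of bacterial L28, had 37.8, 28.4 and 42.5 CPM with RLX, against 65.7, 54.8 and 54.7 CPM in young males (-0.68, SE 0.19). Mrpl52, Mrpl55, Mrps24 and Mrpl34 had log2 fold changes of -0.62 to -0.65. Mrps27, an RNA-binding protein of the small subunit, was the 1 member with RLX males above all young males, at 0.16 (SE 0.18). With the length trend removed the median was -0.0096, without young male rat 3 it was -0.091, and without RLX rat 3 or young rat 2 the count at an unadjusted p under 0.05 was 8.

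Whether the sexes differed was tested as an interaction. For RLX, 72 of 73 members had a higher log2 fold change in females than in males, with a median difference of 0.36, against 0.0049 for all genes. None passed in edgeR (0% of all 13017 genes), 40 had an unadjusted p under 0.05 and a positive difference, against 8.70% of all genes, and DESeq2 called 11, all with a positive difference, against 2.48% of all genes. Mrps5, at the mRNA entry, had the smallest p, with a difference of 0.50 (SE 0.13, adjusted p = 0.13 in edgeR, 4 females and 3 males a group). Its CPM was 31.1, 31.5, 32.0 and 33.3 in RLX females, against 30.0, 26.6, 27.6 and 28.2 in aged control females. In males it was 28.8, 25.9 and 27.4 with RLX, against 35.1, 33.4 and 35.01 without, so the groups were separate in both sexes and in opposite directions. With the length trend removed 17 of 73 had an unadjusted p under 0.05 and a positive difference, against 7.19% of all genes, and 0 passed. For aging, 55 of 73 members had a lower log2 fold change in females, with a median difference of -0.17. None passed in edgeR, against 3.02% of all 13090 genes. At an unadjusted p under 0.05 there were 8, all lower in females, against 9.04% of all genes lower and 10.9% higher. DESeq2 called 0 members, where it called 2.88% of all genes lower and 3.87% higher. Mrps27 had the smallest p, at -0.56 (SE 0.19, adjusted p = 0.11 in edgeR). Without young male rat 3, 1 member, Mrps30, was called, against 2.46% of all genes. In that fit 27 members had an unadjusted p under 0.05, against 10.3% of all genes lower and 10.6% higher. Without young male rat 4 that count was 1, against 7.14% of all genes lower and 8.60% higher. The concentration loaded on the sequencer differed between the sexes, so sex and loading cannot be told apart, and levels were not compared between the sexes.

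By place in the ribosome, the shift in RLX males reached both subunits, with medians of -0.29 over 44 large-subunit names and -0.32 over 29 small-subunit names. The 4 tested stalk genes, which recruit the GTPases of translation, had the median furthest from 0, at -0.58. RLX and aged control males were separate in all 4, as in 53 of 73 members and 23.4% of the other genes of like length. The medians were -0.38 over 5 genes of the mRNA path and decoding, -0.33 over 10 of the small body, -0.29 over both 5 of the central protuberance and 11 of the large core, and -0.23 over both 5 of the exit tunnel and 7 of the small head. With the length trend removed the stalk was at -0.25 and the mRNA path at -0.31, while the large core was at 0.0092. In female aging the small head was at -0.18 and the large core at -0.15, while the stalk was at 0.0035 and the mRNA path at 0.025. The mitochondria-specific proteins had -0.087 in female aging, with 23 of 29 negative, and the homologs of bacterial proteins -0.048, with 27 of 42 negative. Mrpl55, which was higher in aged than in young females, is not in that mitochondria-specific list. None of these groups was tested against another, and none had a member that passed in edgeR. Mrps12, at the decoding centre, had 13.4, 11.5 and 13.7 CPM in RLX males, against 16.6, 16.7 and 17.9 CPM in aged control males (-0.38, SE 0.16).

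The paralogs of bacterial S18 had like levels. Mrps18a, which sits in the large subunit, had a median of 44.1 RPKM, Mrps18b 48.2 RPKM and Mrps18c 49.9 RPKM, with ranges that overlap. In RLX males all had groups separate from aged control males, as 53 of 73 members had, with log2 fold changes of -0.30, -0.41 and -0.37 (SE 0.13, 0.13 and 0.14). Mrps18b had 56.3, 53.7 and 59.7 CPM in RLX males, against 73.3, 75.3 and 81.2 CPM in aged control males. Mrps36_1, which is not part of the ribosome, had 184, 225 and 168 CPM in RLX males, against 241, 233 and 271 CPM in aged control males (-0.33, SE 0.15), near the family's median. Mrps30, the other large-subunit protein with a small-subunit name, had -0.12 (SE 0.17) in that comparison and -0.28 (SE 0.093) in female aging, with 30.0, 36.5, 32.7 and 29.4 CPM in aged control females, against 39.9, 37.0, 40.4 and 39.0 CPM in young females. The differences between the paralogs were not tested.

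Within groups the members varied less than most genes and varied together. The SD of log2 CPM within groups had a median of 0.15 over the 73 members, against 0.25 over 11960 genes tested in all comparisons. Those genes were not matched to the members in expression level, and the part of level in this difference was not tested. Mrps5 (0.067), Mrpl10 (0.074) and Mrps7 (0.082) varied least. Mrpl30_1 (0.43), Mrpl14 (0.36) and Mrps28 (0.27) varied most, and Mrpl14 spanned 7.85 CPM in RLX male rat 3 to 43.7 CPM in RLX female rat 2. After removing group means, a member's log2 CPM had a median correlation of 0.60 with the mean of the other members over 21 libraries (15 degrees of freedom), with 71 of 73 positive. Other genes in the same length classes had a median of 0.092, nuclear respiratory chain genes 0.62, cytosolic ribosomal protein genes 0.47 and mitochondrial aminoacyl-tRNA synthetases -0.093. Libraries share depth and composition across genes, so these are descriptions. Chosen after the values were seen, Mrpl42 (0.87), Mrpl17 (0.85) and Mrps16 (0.83) followed the others most closely, and Mrps27 (-0.083) and Mrpl10 (-0.023) least. Mrps11 and Mrpl46, which lie head to head on chromosome 1 in the tables with starts 141453419 and 141453185, had 0.068 and 0.78. In RLX males Mrps11 had 15.7, 11.1 and 16.3 CPM, against 20.5, 21.8 and 22.7 CPM in aged control males, while Mrpl46 had 20.8, 20.7 and 20.8 CPM, against 23.0, 22.6 and 26.8 CPM. Their log2 fold changes were -0.56 (SE 0.18) and -0.19 (SE 0.15), and the difference between them was not tested.

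Mitoribosome proteins named outside the Mrp series showed similar counts. In female aging 6 of 7 were negative and 1 passed: Ptcd3, a small-subunit protein that binds RNA, fell to 47.5, 49.4, 49.5 and 48.5 CPM in aged control females, against 64.4, 54.4, 66.8 and 62.1 CPM in young females (-0.34, SE 0.085, adjusted p = 0.040 in edgeR, n = 4 each). It was 59.0, 60.7, 58.9 and 60.1 CPM in RLX females, above all aged controls. In RLX males 6 of 7 were negative and 0 passed (0% of all genes). Of 11 regulators of mitochondrial genes, 1 passed in female aging, where 5.35% of all genes passed and 1.88% were called lower. Neither list was tested as a set. Ppargc1a, the coactivator PGC-1 alpha, fell to 9.34, 7.23, 6.48 and 7.08 CPM in aged control females, against 15.7, 9.42, 14.5 and 10.9 CPM in young females (-0.75, SE 0.18, adjusted p = 0.035 in edgeR). With RLX it was 11.1, 11.3, 13.1 and 14.6 CPM, above all aged control females (0.72, SE 0.15, adjusted p = 0.087). These aged controls are the same rats as in the aging comparison, so the opposite signs of Ptcd3 and Ppargc1a are not independent. Esrra, a nuclear receptor partner of that coactivator, had -0.71 (SE 0.22) in RLX males and did not pass.

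Other parts of mitochondrial translation had no gene past the test in the 6 comparisons between 2 groups. Of all genes, 5.35% passed in female aging. In female aging 14 of 15 translation factors, 15 of 16 aminoacyl-tRNA synthetases, 15 of 16 ribosome assembly factors and 7 of 8 genes of mitochondrial DNA transcription and replication were negative, with medians of -0.15, -0.22, -0.18 and -0.074. In RLX males the same lists had medians of -0.070, 0.0093, -0.16 and -0.021, nearer 0 than the members, and their genes are longer, with medians of 1597 to 1919 bases. Lrpprc, which stabilises mitochondrial mRNAs, had -0.41 (SE 0.12, adjusted p = 0.070 in edgeR) in female aging, and its difference between the sexes passed (-0.83, SE 0.22, adjusted p = 0.049). Gfm1, the elongation factor G1, had -0.32 (SE 0.10) and Tfb2m, a mitochondrial transcription factor, -0.33 (SE 0.092) in female aging. The 13 mRNAs of the mitochondrial genome had medians of 0.16 in female aging and 0.024 in RLX males, and 0 passed in either.

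The most similar gene families showed where the members differ. In female aging the cytosolic ribosomal protein genes, which are shorter (median 528 bases), had a median log2 fold change of 0.39, with 29 of 108 called higher and 1 lower, the sign opposite to that of the mitochondrial members. The nuclear respiratory chain genes (median 630 bases) had -0.15, with 12 of 83 called lower, the sign of the members. With RLX in females the members had 0.066, against -0.20 in the cytosolic and 0.14 in the respiratory chain genes. In RLX males the members had -0.29, against -0.59 and -0.36 in the same order, and 0 genes were called in either comparison. The differences between the families were not tested, and the counts stand beside 3.47% of all genes called higher and 1.88% called lower in female aging.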

How the data were processed

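Left ventricle RNA of 21 rats was depleted of ribosomal sequences and sequenced as paired-end reads. The authors mapped the reads to the rat genome in Biomedical Genomics Workbench, and no source used here names the build. Counts deposited in the 4 tables are the authors' total counts per gene, not normalized, and the RPKM values are the authors' counts over gene length and library total. Of the per-sample columns 56 (CPM and TPM) were not used, and 7 libraries stand in 2 tables with identical values.

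Counts were tested in R 4.3.3 with edgeR 4.0.16 (limma 3.58.1): filterByExpr, TMM factors, a robust quasi-likelihood F test on the 2 groups alone and Benjamini-Hochberg adjustment over all genes tested, with calls at an FDR of at most 0.05. Adjusted p-values are edgeR's unless another tool is named. P-values measure the spread between rats. CPM was computed with TMM factors over 21 libraries, and log2 CPM with a prior count of 2. Exon length came from counts over RPKM, for 75 of 76 members. The length trend was a lowess curve (span 0.3) of log2 CPM on log length in each library, used as an offset. As an alternative, calls had also to meet the study's limits on RPKM (1 or more) and fold change (over 1.5). Sequences are from RefSeq (GRCr8).

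Members and lists were chosen with earlier results of these data known. The genes named are, for each comparison, up to 6 members higher and 6 lower with the smallest p among those without overlap, the extremes of level and spread, the untested members, Mrps18a to Mrps18c, Mrps36, Mrps30, Mrpl12, Mrpl11 and Mrps12, and up to 4 genes per pathway list. Others (Mrpl16, Mrps11, Mrpl46 and the closest followers) were chosen after their values were seen. Other alternatives were the length trend, no filter, voom with quality weights, the exact test of edgeR, RLE factors, DESeq2 1.42.0, a fit of the 3 groups of each sex together, the replicate block and each library left out. The pipeline was tested on simulated data.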

Additional observations from a re-analysis of the deposited data

Results flagged for a closer look

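In groups of 4 females, 9 of 111 sets of values (36 named members and their median, in 3 groups) held a rat far from the other 3, by a gap over range above Dixon's critical value. Chance alone gives about 1 such set in 20. In RLX females, rat 4 had 44.1 CPM of Mrps34 (others 30.4 to 31.4), in the library with blood RNA, and rat 6 had 31.3 CPM of Mrps18c (others 43.8 to 45.5). In aged control females, rat 4 stood high for Mrps35 (45.6 CPM, others 40.0 to 40.6), Mrpl52 (51.8 CPM, others 47.4 to 48.1) and Mrpl34 (35.3 CPM, others 29.6 to 30.5). Rat 6 of that group stood low for Mrpl3 (75.2 CPM, others 88.7 to 89.6) and rat 2 for Mrpl10 (25.9 CPM, others 28.9 to 29.5). In young females, rat 3 stood low for Mrpl2 (22.4 CPM, others 24.4 to 24.8) and rat 5 high for Mrps31 (33.7 CPM, others 29.5 to 29.9). The groups of 3 males were not examined in this way.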

How the results depend on the processing

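No member passed in any of the 8 tests in edgeR, and the count stayed at 0 with RLE factors, with no filter on low counts and with the study's own limits. In female aging these settings called 5.23%, 4.07% and 2.77% of all genes. In female aging DESeq2 called 3 members, the fit of all 3 groups 1 (2.51% of all genes called lower), and the removal of the length trend 5, with a median of -0.15. In RLX against control aged males DESeq2 and voom called 1 each, and the median with the length trend removed was -0.062. In RLX-treated aged against young males DESeq2 and the exact test called 1 each, and the median was -0.11 with voom and -0.0096 with the length trend removed. DESeq2 called 11 members in RLX by sex. The cause of these differences was not tested. With a library left out, the count ran from 0 to 1 in aging by sex, and medians from -0.094 to -0.037 in female aging, 0.037 to 0.092 for RLX in females, -0.037 to 0.15 in male aging, -0.30 to -0.24 for RLX in males, -0.047 to 0.026 for RLX-treated against young females, and -0.34 to -0.091 for RLX-treated against young males. Rat numbers were not taken as pairs in the main fits. Over rats that share a number, deviations correlated at -0.15 to 0.23 in females and at 0.008 and 0.46 in males. So few shared numbers cannot settle whether they pair the groups. The replicate block called 8 members lower in RLX-treated against young males, where it called 4.04% of all genes lower. In the comparisons of females it called 0 members. The share of all genes called there was 0% in female aging, 0.143% for RLX in females and 1.96% for RLX-treated against young females. Of the named members' fold changes, 1 changed sign under the alternatives run: that of Mrps30 in RLX against control aged males was 0.0067 without RLX male rat 7 and ran from -0.26 to 0.0067 as each library was left out. Groups of 3 or 4 rats and small fold changes limit what an FDR of 0.05 can show.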

Other observations

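The tables spell 3 further genes of the family in lower case, outside the naming rule. In RLX males mrpl11, a protein of the stalk, had 33.3, 27.7 and 26.7 CPM, against 35.7, 39.1 and 38.1 CPM in aged control males, a log2 fold change of -0.34 (SE 0.15). The log2 fold change of mrpl9, a homolog of bacterial L9, was -0.33 (SE 0.14) in that comparison, with 41.1, 39.3 and 47.4 CPM in RLX males, against 50.4, 54.4 and 59.9 CPM in aged control males. For mrpl24, a protein of the exit tunnel, it was -0.20 (SE 0.13). In female aging they had -0.15, 0.17 and 0.060, in the order mrpl11, mrpl9 and mrpl24. None passed in edgeR in any test.

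By promoter, the 11 tested members with an ETS core had a median log2 fold change of -0.37 in RLX against control aged males, against -0.25 in the 47 without. The 5 with an NRF1 core had -0.23, against -0.30 in the 53 without. In female aging the medians were -0.014 with and -0.066 without the ETS core. These splits were not tested. Of the 58 promoters, 15 have a gene on the other strand that starts within 500 bases, among them Mrpl46 and Mrps11, whose annotated starts on GRCr8 are 232 bases apart.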
